A study of Mus musculus with 14 samples.

Results

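Lactose, the sugar of milk, is built from glucose, and 10 genes of lactose synthesis and glucose use were followed here across sorted mouse mammary cells. The genes were Slc2a1, Hk1, Hk2, Aldoc, Gpi1, Pgm1, Pgm2, Ugp2, Slc35a2 and B4galt1, found by the gene name that the scanner files give to each probe or by an older synonym. They had 21 probes, all of which passed the signal filter, and are 10 of 23647 genes tested. The gene names of Pgm1 and Pgm2 have been exchanged since the array was designed, so each was taken by its accession: the probe filed as Pgm2 reads the current Pgm1, and the probe filed as Pgm1 the current Pgm2.

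The samples were RNA of cells sorted from mammary glands of FVB/N-J wild-type mice, pregnant or virgin, on 14 arrays. They were sorted on the surface proteins CD24 and CD29 into P4 (CD24+CD29hi, enriched for mammary stem cells), P5 (enriched for luminal progenitors and labelled with the same CD24+CD29hi gate) and P6 (CD24lo, differentiated cells), with 2 arrays each from pregnant and 2 each from virgin mice. In virgin L2G85 mice, a luciferase-transgenic FVB line that also carries a GFP reporter, cells negative for lineage markers and with high GFP (GFPhi, stem-cell enriched) or low GFP (GFPlo, depleted) were measured on 1 array each. The stage of pregnancy, the ages of the mice and any pooling of animals are not given in the sources used here, nor whether replicate arrays came from separate animals, so p-values measure only the spread between these samples.

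The labels were set against marker genes of the cell types. Basal markers, 9 genes such as Trp63, averaged a log2 ratio of 3.52 to 5.85 on the P4 and GFPhi arrays, against 0.58 to 2.11 on the P5, P6 and GFPlo arrays. Luminal markers averaged 1.68 to 3.70 on the P5 arrays and 0.93 to 2.02 on the P4 and GFPhi arrays. Fibroblast markers such as Col1a1 averaged 4.10 to 5.98 on the P6 arrays and 5.04 on the GFPlo array, against -1.68 to -0.63 in P4 and P5 and 1.85 on the GFPhi array. P6 therefore carried defining genes of fibroblasts, which its label does not name. Endothelial markers averaged 2.64 to 3.76 on the P4 arrays, against 1.37 to 1.46 on the P5 arrays and 0.93 to 2.41 on the P6 arrays. The GFPhi array had 1.99 and the GFPlo array 1.60. Of the 9 endothelial genes, 3 were called higher in P4 than in P5 in virgin mice and 5 in pregnant mice. Against P6, 0 were called higher in P4 and 1 lower in virgin mice, and 2 higher and 0 lower in pregnant mice. The P4 label does not name endothelial cells. Hormone-sensing luminal markers averaged 0.30 and 0.38 in pregnant P5, against 4.23 and 4.04 in virgin P5. Skeletal muscle markers averaged 0.90 and -0.30 in pregnant P5, against 3.0 and 2.86 in virgin P5.

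Levels are given as log2 ratios of an array's sample to the RNA pool of 11 mouse cell lines that every array carried, so that 0 means the level of the pool. Group differences, on the same log2 scale, were tested with limma over all genes and called at an adjusted p under 0.05. Ratios of different genes share no scale of abundance. In such bulk samples fewer cells of a type and less RNA per cell cannot be told apart.

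Glucose enters an epithelial cell through facilitative transporters, of which Slc2a1 (GLUT1) is the main one of the mammary gland. Hexokinases trap it as glucose 6-phosphate, which either goes down glycolysis or is turned by phosphoglucomutase and Ugp2 into UDP-glucose, from which UDP-galactose is made. Slc35a2 carries UDP-galactose into the Golgi, where B4galt1, a galactosyltransferase found in most tissues, becomes lactose synthase when it binds alpha-lactalbumin, the milk protein made by Lalba. Lactose draws water into milk, and the enzyme complex is known to switch on in late pregnancy.

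B4galt1, the catalytic part of lactose synthase, was the member that pregnancy moved most. The pregnant P5 arrays had log2 ratios of 4.79 and 4.42, against 0.96 and 0.65 in virgin P5. In P4 the pregnant arrays had 1.29 and 1.75, against -0.43 and -0.66 in the virgin ones. In P6 it had 2.76 and 1.74 in pregnant mice, against 1.09 and 1.46 in virgin mice. The pregnant arrays lay above the virgin ones in all 3 populations, without overlap, and the P5 gap was the widest. B4galt1 rose 13.9-fold in pregnant P5 (log2 difference 3.80, SE 0.33, adjusted p = 0.000173) and 4.18-fold in pregnant P4 (2.07, SE 0.33, adjusted p = 0.0154). In P6 the difference of 0.98 (SE 0.33) did not pass the test (adjusted p = 0.476). Among arrays of scan 2, which holds 1 array of each P4, P5 and P6 group, the difference was 3.77 in P5, 2.41 in P4 and 0.28 in P6. The P4 call was lost when either virgin P4 array or replicate 2 of pregnant P4 was left out (differences of 1.84 to 2.18, adjusted p from 0.0751 to 0.119), and when arrays were centred on their median in place of loess (2.51, adjusted p = 0.226).

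Over the 8 groups B4galt1 averaged 4.61 ± 0.26 in pregnant P5, 2.25 ± 0.72 in pregnant P6 and 1.52 ± 0.32 in pregnant P4 (SD, n = 2 each). Virgin P6 followed with 1.27 ± 0.26, virgin P5 with 0.81 ± 0.22 and virgin P4 with -0.55 ± 0.16 (SD, n = 2 each). GFPlo had 1.52 and GFPhi 0.04. Pregnant P5 stood clear of all other arrays, whereas GFPlo and the pregnant P4 arrays overlapped, as did pregnant P4 and virgin P6. The lowest arrays of all were those of virgin P4.

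The 250 bases upstream of the B4galt1 start are shown because this member had the largest response to pregnancy. They are chr4:40853985-40854234 of GRCm38.p6 on the minus strand, from RefSeq, with the one match to the STAT consensus TTCNNNGAA in capitals.
B4galt1: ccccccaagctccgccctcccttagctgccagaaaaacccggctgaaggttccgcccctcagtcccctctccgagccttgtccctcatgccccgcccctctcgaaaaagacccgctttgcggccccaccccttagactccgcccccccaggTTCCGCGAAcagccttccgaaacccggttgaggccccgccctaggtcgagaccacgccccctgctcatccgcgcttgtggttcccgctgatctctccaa
STAT5, the factor that prolactin activates in the gland, is known to bind that consensus, which was searched on both strands. It was found in 2 of 13 upstream windows of the 10 genes, against 7.02% of 32851 windows of all genes. The GC-box letters GGGCGG, also searched on both strands, were found in 9 of 13 windows, against 32.7% of all windows, and the B4galt1 window held 5 of them. A match is a description of letters and not of a bound site.

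The probes of B4galt1 disagreed along the gene. The brightest probe (mm7, chr4:40943169-40943228) and the one beside it (mm7, chr4:40943032-40943065) lie at the 3′ end, and the second rose by 4.02 in P5 (adjusted p = 0.000222) and by 2.01 in P4 (adjusted p = 0.0264). The remaining probe lies at the 5′ end (mm7, chr4:40992159-40992218, minus strand), 48931 bases from the nearest of the others. It gave 0.62 and 0.81 in pregnant P5, against 0.68 and 0.75 in virgin P5, and -0.05 and 0.92 in pregnant P4, against 0.89 and 1.07 in virgin P4. The 5′ probe thus did not separate pregnant from virgin P5 (log2 difference 0.00015, SE 0.33), and in P4 its difference pointed the other way without passing the test (-0.54, adjusted p = 0.527). Its 60 bases, shown because the finding depends on which end of the gene is read, are 76.7% G and C, against 38.3% and 45.0% for the 3′ probes.
B4galt1 5′ probe: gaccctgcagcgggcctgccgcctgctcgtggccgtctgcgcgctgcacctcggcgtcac
It was also dimmer, with a mean log2 brightness of 8.49, against 12.2 and 11.1 for the 3′ probes, although well above background on all 14 arrays. In mouse, B4galt1 is known to be transcribed from alternative starts, and whether the 5′ probe lies in the transcripts of all of them was not tested. Which transcripts each probe reads was not tested, and neither was the part of probe position, base content or brightness in the disagreement.

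**Figure D1:**
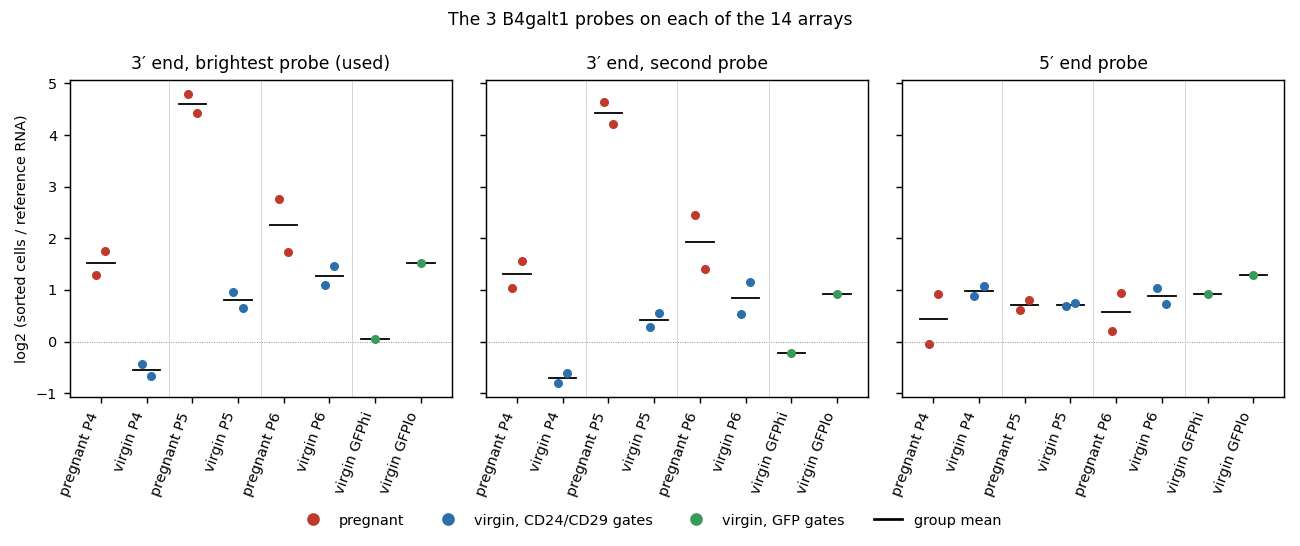
Log2 ratio over reference RNA (vertical axis) of the 3 B4galt1 probes on each array, by group (horizontal axis), with points for arrays and black lines for group means. Both 3′ probes reach above 4 in pregnant P5, while the 5′ probe stays between -0.05 and 1.29 in every group.

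Lalba, which gives the other subunit of lactose synthase and is not among the 10 genes, had 4.39 and 5.42 in pregnant P5, against 3.97 and 3.59 in virgin P5. In P4 it had 1.94 and 4.13 in pregnant mice, against 2.41 and 1.62 in virgin mice. The pregnant P4 replicates thus lay further apart than the groups did. None of the 3 pregnancy effects on Lalba passed the test (adjusted p from 0.389 to 0.974), while pregnant P5 was 11.8-fold above pregnant P6 (log2 difference 3.57, SE 0.82, adjusted p = 0.0123). Lalba was above the reference mix on all 14 arrays, virgin ones included.

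Aldoc (probe at mm7, chr11:78408037-78408096), the aldolase C isoform of glycolysis that is best known from brain, was the second gene to rise. The pregnant P5 arrays had 4.35 and 4.84, against 2.33 and 2.34 in virgin P5. The pregnant P4 arrays had 0.77 and 1.59, against 0.41 and -0.35 in virgin P4. Pregnant P6 had -1.62 and -1.17, against -0.68 and -1.23 in virgin P6. Aldoc was thus high in P5 of both conditions and highest in pregnant P5, where it rose 4.79-fold over virgin P5 (log2 difference 2.26, SE 0.36, adjusted p = 0.00313). Within scan 2 the difference was 2.50, and the second Aldoc probe gave 2.02 (adjusted p = 0.00447). The P4 difference of 1.15 did not pass the test (adjusted p = 0.147), but did with the replicate number as a block (adjusted p = 0.00694).

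One of the windows upstream of Aldoc (chr11:78323948-78324197, plus strand, GRCm38.p6, RefSeq) is the other with the STAT consensus, which it holds at 2 places, in capitals.
Aldoc: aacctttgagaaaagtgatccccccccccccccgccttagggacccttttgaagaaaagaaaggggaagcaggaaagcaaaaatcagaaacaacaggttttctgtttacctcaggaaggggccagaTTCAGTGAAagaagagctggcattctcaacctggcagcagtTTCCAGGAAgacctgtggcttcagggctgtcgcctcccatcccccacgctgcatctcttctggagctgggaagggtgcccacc
The other Aldoc window held none.

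Ugp2 (probe at mm7, chr11:21275271-21280897), which makes UDP-glucose, had 1.51 and 0.47 in pregnant P5, against -0.52 and -0.71 in virgin P5. In pregnant P4 it had 1.32 and 0.38, against -0.56 and -0.69 in virgin P4. With this probe all 4 pregnant arrays of P4 and P5 were above all virgin ones, and in each pair the array of scan 3 was the higher. Ugp2 rose 3.05-fold in P5 (log2 difference 1.61, SE 0.41, adjusted p = 0.0241). In P4 its difference of 1.48 did not pass the test (adjusted p = 0.0989), but did with the replicate block (adjusted p = 0.000495). The second Ugp2 probe did not pass the test in P5 (0.38, adjusted p = 0.308), and leaving out either virgin P5 array or replicate 1 of pregnant P5 also ended the call (1.09 to 1.70, adjusted p from 0.0923 to 0.132). By the second probe the pregnant arrays had 0.41 to 0.48 in P4 and -0.06 to 0.01 in P5. They lay above the virgin arrays of their own population but below those of virgin P6 (0.50 to 1.02).

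Slc35a2 (probe at mm7, chrX:6325732-6325791), the Golgi carrier of UDP-galactose, had 0.74 and 0.42 in pregnant P5, against -0.12 and -0.19 in virgin P5. It rose 1.67-fold there (log2 difference 0.74, SE 0.16, adjusted p = 0.0126), a small change next to B4galt1. Its dimmer second probe gave 0.34 (adjusted p = 0.397). The call also ended without either virgin P5 array or replicate 1 of pregnant P5 (0.58 to 0.77, adjusted p from 0.0621 to 0.0727), and in 5 of 12 other settings (adjusted p up to 0.676). In P4 and P6 its differences were 0.15 and 0.18, and neither passed the test.

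Hk2 (probe at mm7, chr6:82750613-82750672), the hexokinase isoform of insulin-sensitive and fast-growing tissues, had 0.16 on both pregnant P5 arrays, against -1.43 and -1.31 in virgin P5. Pregnant P4 had -0.87 and -1.78, against -0.52 and -0.87 in virgin P4. Pregnant P6 had -2.16 and -1.11, against -0.30 and 0.45 in virgin P6. The gene was thus higher in pregnancy in P5 and had lower values in pregnancy in P6. Hk2 rose 2.88-fold in P5 (log2 difference 1.53, SE 0.41, adjusted p = 0.0304), and in P6 its difference of -1.71 did not pass the test (adjusted p = 0.208). The P5 call was lost without any one of the 4 P5 arrays (1.46 to 1.59, adjusted p from 0.0981 to 0.144), and with slide as a block the difference was 0.27 (adjusted p = 0.813). Within scan 2 it was 1.47.

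The window upstream of Hk2 (chr6:82774455-82774704, minus strand, GRCm38.p6, RefSeq) is shown with 2 matches to ACGTG, the core that hypoxia-inducible factors are known to bind. Both lie on the opposite strand and so read CACGT here, in capitals.
Hk2: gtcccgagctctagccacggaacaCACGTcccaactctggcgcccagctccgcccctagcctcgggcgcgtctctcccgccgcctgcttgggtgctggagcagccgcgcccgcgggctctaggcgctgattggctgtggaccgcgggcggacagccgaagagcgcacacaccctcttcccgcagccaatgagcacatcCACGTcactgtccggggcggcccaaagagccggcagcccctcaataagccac
The core was found, on either strand, in 5 of 13 windows of the members, against 16.6% of all windows. The E-box CACGTG, which contains it, was in 0 of 13, against 6.02%. Besides Hk2 and Slc2a1, the windows with the core were those of Pgm1 (2 matches), Pgm2 (1) and 1 of the Ugp2 windows (1). The B4galt1 window and both Aldoc windows held 0. Slc2a1, a known target of those factors, has 1 match in its window (chr4:119108495-119108744, plus strand, GRCm38.p6, RefSeq).
Slc2a1: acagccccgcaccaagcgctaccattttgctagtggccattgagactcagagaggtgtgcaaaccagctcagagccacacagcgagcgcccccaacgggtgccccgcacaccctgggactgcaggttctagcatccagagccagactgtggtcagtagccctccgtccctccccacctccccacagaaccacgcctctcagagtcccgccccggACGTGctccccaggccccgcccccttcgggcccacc

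Slc2a1 (probe at mm7, chr4:118513698-118513757), the glucose transporter, separated the populations more than the conditions. Pregnant P5 had 0.18 and 0.17, against -0.82 and -1.24 in virgin P5. Pregnant P4 had -0.97 and -1.10, against 0.21 and -0.18 in virgin P4. Pregnant P6 had -4.08 and -2.27, against -1.97 and -2.67 in virgin P6. The direction thus differed between P5, where the pregnant arrays were higher, and P4, where they were lower. Neither difference passed the test: it was 1.20 in P5 (SE 0.51, adjusted p = 0.137) and -1.05 in P4 (SE 0.51, adjusted p = 0.384). GFPhi had 0.11 and GFPlo -0.57, so the P6 arrays were the lowest of all 14.

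Hk1, the hexokinase found in most tissues, had -0.79 and -0.01 in pregnant P5, against 0.39 and 0.56 in virgin P5. That difference of -0.88 did not pass the test (adjusted p = 0.112), but did with the replicate block (adjusted p = 0.00119). None of the 5 dimmer Hk1 probes was called in any of the 3 pregnancy effects. Some of them went the other way in P5, with means of 0.02 in pregnant against -0.38 in virgin P5, and of 0.14 against -0.03. The rest had lower means in pregnant P5. Gpi1, which converts glucose 6-phosphate to fructose 6-phosphate, ran from -1.61 to -0.89 over the 14 arrays with its brightest probe. Its second probe ran from -0.25 to 1.17 and had 0.83 and 1.17 in pregnant P5, against 0.12 and 0.15 in virgin P5. The groups did not overlap there, but the difference of 0.87 did not pass the test (adjusted p = 0.0756) and was opposite in sign to that of the brightest probe (-0.11, adjusted p = 0.642). Pgm1, the main phosphoglucomutase, ran from -1.32 to -0.71. Pgm2, which acts mostly on pentose phosphates, ran from -1.54 to 0.80, and in each pregnant population the array of scan 3 was the higher. With their brightest probes, none of these 3 passed the test in any pregnancy effect, with adjusted p from 0.524 to 0.993.

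**Figure D2:**
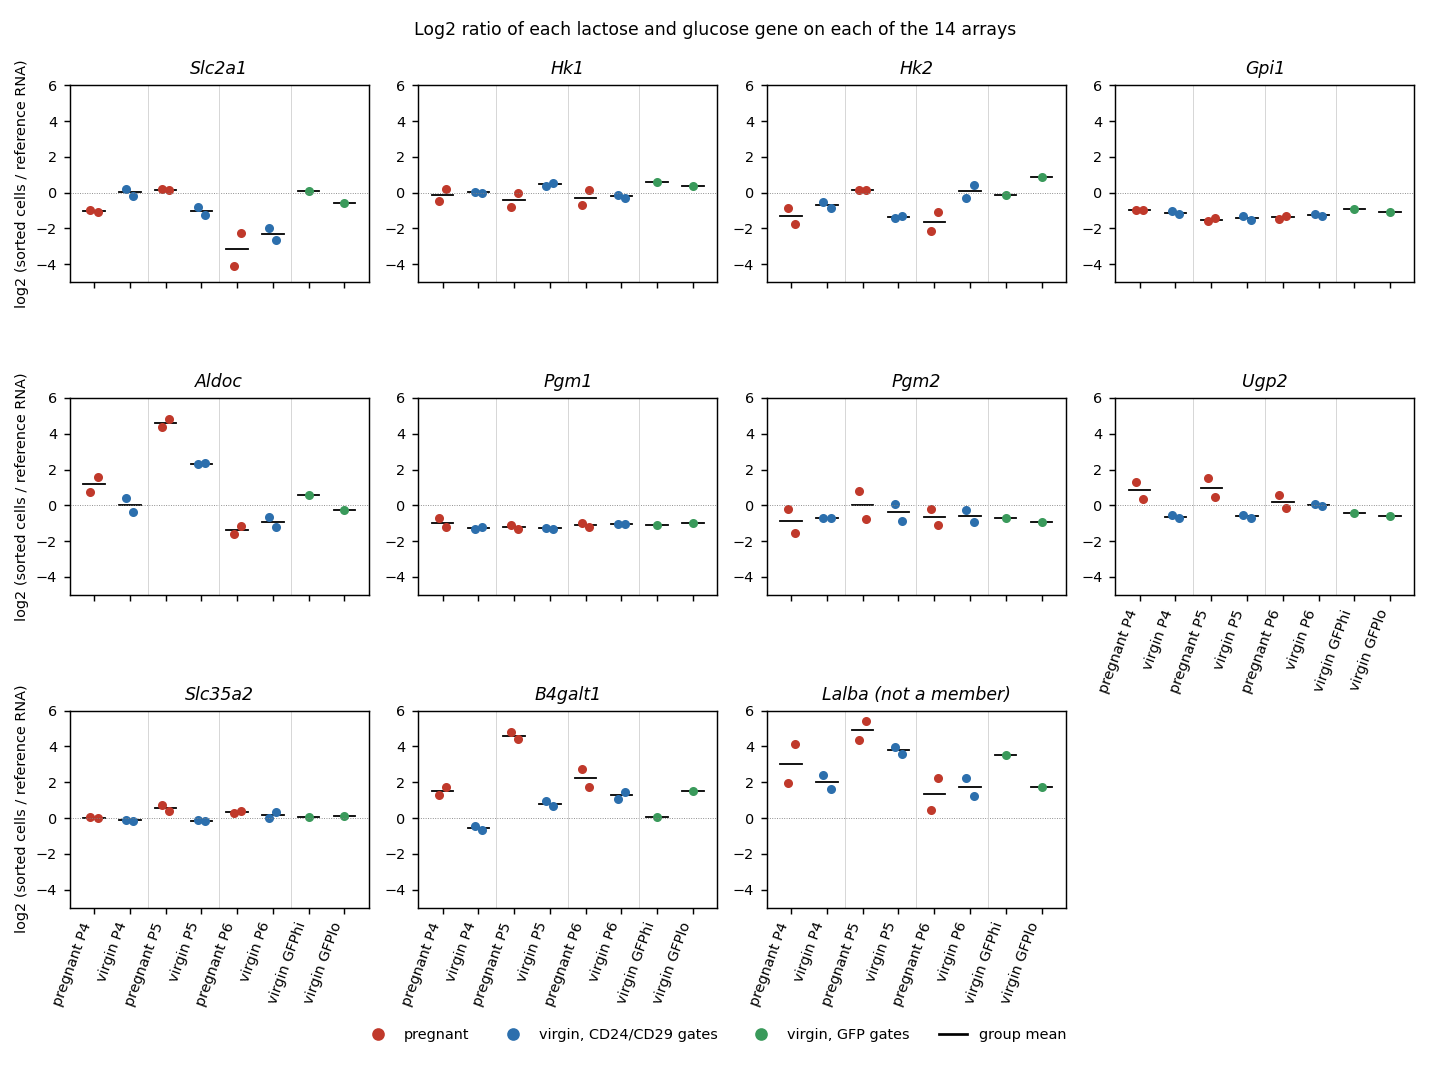
Log2 ratio over reference RNA (vertical axis) of each member and of Lalba on every array, by group (horizontal axis), with points for arrays and black lines for group means. B4galt1 and Aldoc reach their highest values in pregnant P5, Slc2a1 is lowest in P6, and Pgm1 and Gpi1, by their brightest probes, stay within a narrow band.

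Counted together, 5 of 10 members rose in pregnant P5 and 0 fell, where 21.4% of all genes tested were called, 10.7% higher and 10.7% lower. The median member difference was 0.97, against 0.04 over all genes. In P4, 1 of 10 rose and 0 fell, where 3.75% of all genes were called (1.49% higher and 2.25% lower), and the median was 0.15 against -0.03. In P6, 0 of 10 were called by limma, with 2 at an unadjusted p under 0.05, where 0.186% of all genes passed (0.0465% higher and 0.14% lower). With the replicate number as a block, 3 members rose in P4. With the local backgrounds left as given, 2 members were called in P5 (B4galt1 and Aldoc), and median centring ended the P5 calls of Hk2 (0.88, adjusted p = 0.449), Ugp2 (1.00, adjusted p = 0.607) and Slc35a2 (0.47, adjusted p = 0.676). With median centring 27.8% of all calls in P5 were higher, against 50.1% with loess.

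**Figure D3:**
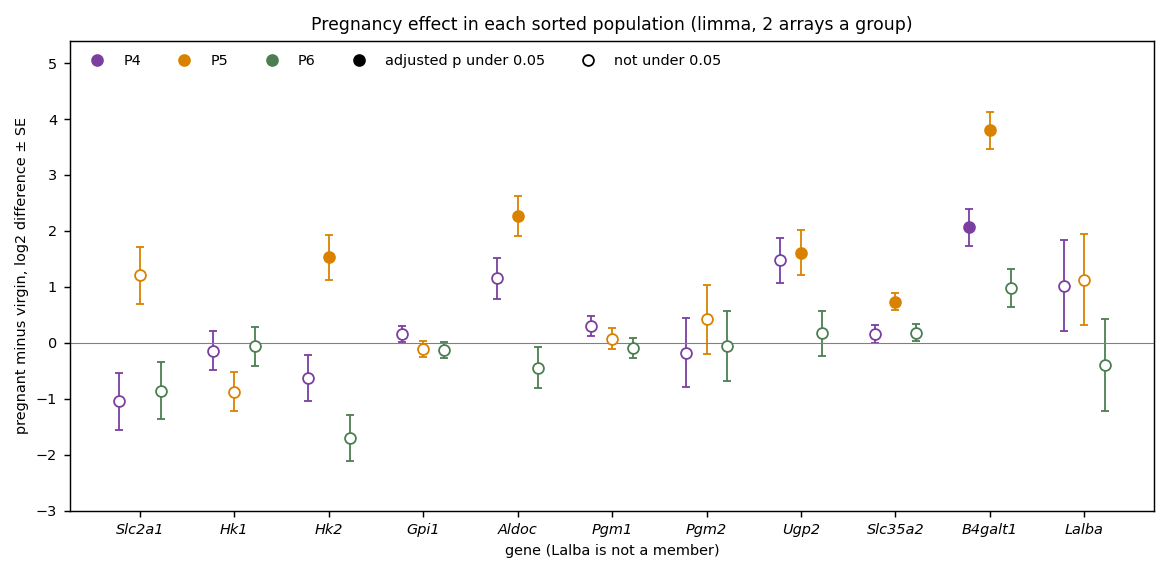
Log2 difference between pregnant and virgin arrays (vertical axis, ± SE) for each member and Lalba (horizontal axis) in P4, P5 and P6, with filled points for an adjusted p under 0.05. The P5 points of B4galt1 (3.80) and Aldoc (2.26) are the highest, and P6 has no filled point.

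Whether pregnancy acted differently on the populations was tested directly. An F test over P4, P5 and P6 called Hk2, Aldoc and B4galt1, 3 of 10 members, where 7.95% of all genes were called. The effect in P5 exceeded that in P6 by 3.23 for Hk2 (SE 0.58, adjusted p = 0.0135), by 2.82 for B4galt1 (SE 0.47, adjusted p = 0.0104) and by 2.70 for Aldoc (SE 0.51, adjusted p = 0.0161). These 3 of 10 compare with 7.32% of all genes (3.79% higher and 3.53% lower). Median centring ended the calls of all 3 in both tests, and local backgrounds as given ended those of the F test (adjusted p from 0.0513 to 0.0792). Without scan 3 the F test no longer called Hk2 (adjusted p = 0.053) or Aldoc (0.0823), nor the P5 excess over P6 Aldoc (0.051). Of the P5 excess over P6, the Aldoc call was also lost without either virgin P5 array, replicate 2 of pregnant P5 or replicate 1 of virgin or pregnant P6 (adjusted p from 0.0514 to 0.0619), and the Hk2 call without replicate 1 of virgin P5 (adjusted p = 0.0562). The F test of B4galt1 missed the threshold without any one of the 4 P5 arrays or replicate 2 of virgin P6 (adjusted p from 0.051 to 0.0812). For Hk2 and Aldoc it did so without any one of those 5 arrays, for Hk2 also without either virgin P4 array, and for Aldoc also without replicate 1 of virgin or pregnant P6 (adjusted p up to 0.107).

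Between P5 and P4, 0 of 10 members differed in their pregnancy effect by limma, with 4 at an unadjusted p under 0.05, where 8.03% of all genes were called (3.89% higher and 4.14% lower). The nearest were Hk2, with an excess of 2.15 in P5 (adjusted p = 0.0594), and B4galt1, with 1.73 (adjusted p = 0.0608). With the replicate block 5 members were called, Hk2 (adjusted p = 0.0362), B4galt1 (0.0283), Slc2a1 (2.25, 0.0292), Aldoc (1.11, 0.0218) and, in the other direction, Hk1 (-0.73, 0.0199). In the F test the block added Slc2a1 (adjusted p = 0.0431), Hk1 (0.0202) and Ugp2 (0.00172). Against P6 it added Slc2a1 (adjusted p = 0.0446), Ugp2 (0.00125) and, lower, Hk1 (0.0152).

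The populations themselves were set against each other within each condition. In pregnant mice 5 members differed between P4 and P5, where 22.6% of all genes were called (11.7% higher and 10.9% lower). B4galt1 was lower in P4 by 3.09 on the log2 scale (8.50-fold, SE 0.33, adjusted p = 0.000391) and Aldoc by 3.42 (10.7-fold, adjusted p = 0.000352). Hk2 (-1.48, adjusted p = 0.0324) and Slc35a2 (-0.56, adjusted p = 0.0371) were also lower in P4, and Gpi1 was higher (0.54, adjusted p = 0.0279). The second Gpi1 probe pointed the other way (-0.96, adjusted p = 0.0545). The calls of Hk2, Slc35a2 and Gpi1 ended when 1 of several arrays was left out (adjusted p up to 0.161, 0.171 and 0.124). Of 12 other settings, Slc35a2 lost its call in 7 (differences from -0.73 to -0.04), Hk2 in 3 (adjusted p up to 0.495) and Gpi1 in 5, with 1 more that reversed it. Median centring ended the B4galt1 call (-2.40, adjusted p = 0.0689). The 5′ B4galt1 probe averaged 0.44 in pregnant P4 and 0.72 in pregnant P5, and the ranges of these arrays overlapped. The replicate block added Pgm2, lower in P4 (-0.90, adjusted p = 0.0154).

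Pregnant P5 stood above pregnant P6 in 4 members, where 26.9% of all genes were called (13.7% higher and 13.2% lower). Aldoc stood 63.7-fold above (5.99, SE 0.36, adjusted p = 1.14e-05), Slc2a1 10.2-fold (3.35, SE 0.51, adjusted p = 0.00151), B4galt1 5.11-fold (2.35, SE 0.33, adjusted p = 0.00103) and Hk2 3.47-fold (1.79, SE 0.41, adjusted p = 0.012). Within scan 2 the 4 differences were 6.01 for Aldoc, 2.43 for Slc2a1, 2.68 for B4galt1 and 1.27 for Hk2. By its 5′ probe B4galt1 averaged 0.72 in pregnant P5 and 0.57 in pregnant P6, with overlapping ranges. The Hk2 call was lost without either pregnant P5 array or replicate 1 of pregnant P6 (adjusted p from 0.0505 to 0.0711). The replicate block added Ugp2 (0.80, adjusted p = 0.001) and Pgm2 (0.66, adjusted p = 0.0482). The second Ugp2 probe pointed the other way, with means of -0.03 in pregnant P5 and 0.24 in pregnant P6. Pregnant P4 was above pregnant P6 in Slc2a1 (2.14, adjusted p = 0.0267) and Aldoc (2.58, adjusted p = 0.00188), 2 of 10 where 12.1% of all genes were called (6.2% higher and 5.87% lower). The Slc2a1 call was lost without either pregnant P4 array, without replicate 1 of pregnant P6 (1.23, adjusted p = 0.0572) and without scan 3 (1.17, adjusted p = 0.208). The second Aldoc probe gave 1.13 (adjusted p = 0.0791). With the block Gpi1 (0.40, adjusted p = 0.034) and Ugp2 (0.66, adjusted p = 0.00487) were called too.

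In virgin mice Aldoc was lower in P4 than in P5 by 2.31 (4.95-fold, SE 0.36, adjusted p = 0.00401) and B4galt1 by 1.36 (2.56-fold, SE 0.33, adjusted p = 0.033), 2 of 10 where 11.4% of all genes were called (6.56% higher and 4.8% lower). The B4galt1 call was lost without any one of these 4 arrays (adjusted p from 0.0967 to 0.19), and its 5′ probe turned the direction (0.27, adjusted p = 0.833). Virgin P4 was above virgin P6 in Slc2a1 (2.34, 5.05-fold, SE 0.51, adjusted p = 0.0208) and below it in B4galt1 (-1.82, SE 0.33, adjusted p = 0.00879), 2 of 10 where 10.3% of all genes were called (4.88% higher and 5.44% lower). The B4galt1 call was lost without replicate 2 of virgin P4 or of virgin P6 (adjusted p of 0.0747 and 0.0652), and the 5′ probe gave 0.10 (adjusted p = 0.974). The Slc2a1 call was lost without either virgin P4 array or replicate 2 of virgin P6 (1.98 to 2.53, adjusted p from 0.0812 to 0.135). Virgin P5 was above virgin P6 in Aldoc (3.29, 9.78-fold, SE 0.36, adjusted p = 0.000341) and below it in Hk2 (-1.44, SE 0.41, adjusted p = 0.0462), where 16.1% of all genes were called (7.32% higher and 8.82% lower). The Hk2 call was lost in 6 of 12 other settings and without any one of 7 arrays. The block added Hk1 between P4 and P5 (-0.47, adjusted p = 0.0293), Aldoc (0.98, adjusted p = 0.00909) and Ugp2 (-0.65, adjusted p = 0.00601) between P4 and P6, and Hk1 (0.69, adjusted p = 0.00442) and Ugp2 (-0.64, adjusted p = 0.00452) between P5 and P6.

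The design sets the stem-cell-enriched samples against the depleted ones over all 14 arrays. Classes made of more than 1 population have a spread that includes the differences between those populations, which makes a call harder to reach. Aldoc, for example, averaged 1.60 ± 3.47 (SD, n = 4) in the pregnant depleted class. A lack of calls here therefore does not show that the populations were alike. In pregnant mice (P4 against P5 and P6) 0 of 10 members were called by limma, with 3 at an unadjusted p under 0.05, where 2.49% of all genes were called (2.25% higher and 0.237% lower). In virgin mice (P4 and GFPhi against P5, P6 and GFPlo) 0 of 10 were called, with 1 at an unadjusted p under 0.05, where 1.62% of all genes were called (1.52% higher and 0.106% lower). That one was B4galt1, which averaged -0.35 ± 0.36 (SD, n = 3) in the enriched arrays and 1.14 ± 0.36 (SD, n = 5) in the depleted ones, without overlap (log2 difference -1.49, adjusted p = 0.415). GFPhi minus GFPlo was -1.48 for B4galt1, -1.04 for Hk2, 0.82 for Aldoc and 0.68 for Slc2a1, from 1 array each and with no test.

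Other genes around lactose synthesis and glucose use were taken from lists of each step. Each count is to be read against the share of all genes called. That share was 21.4% in P5 (10.7% higher and 10.7% lower), 3.75% in P4 and 0.186% in P6. Of 13 genes of pyruvate use, 8 rose in pregnant P5 and 1 fell, with a list median of 2.54. Acly, which makes cytosolic acetyl-CoA for fat synthesis, rose 20.4-fold (4.35, adjusted p = 0.000403). The mitochondrial pyruvate carrier subunits Mpc1 (4.18, adjusted p = 0.00128) and Mpc2 (3.30, adjusted p = 0.000115) rose as well. In P4, 5 of 13 rose, with Acly at 2.40 (adjusted p = 0.0268), Pcx, pyruvate carboxylase, at 1.68 (adjusted p = 0.0116) and Mpc2 at 1.66 (adjusted p = 0.0149). In P6, 0 of 13 were called by limma, and 0 had an unadjusted p under 0.05.

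Of 23 glycolysis genes, 7 rose in pregnant P5 and 5 fell, where 10.7% of all genes passed in each direction. Slc16a1, a lactate and pyruvate transporter, rose 7.12-fold (2.83, adjusted p = 0.000408). Pfkfb3, which makes the activator of phosphofructokinase, fell by 2.63 on the log2 scale (adjusted p = 0.0189) and Eno3, the muscle enolase, fell by 2.26 (adjusted p = 0.000821). The skeletal muscle markers, 7 of 8 of which fell in the same comparison with a median of -2.71, moved with Eno3; their part in that result was not tested. In the pentose phosphate pathway, which yields NADPH, 3 of 7 genes rose and 1 fell: Tkt, transketolase, by 3.35 (adjusted p = 0.00604), Pgd by 2.18 (adjusted p = 0.000507), with H6pd, the enzyme of the endoplasmic reticulum, lower (-1.78, adjusted p = 9.93e-05). In P4, 1 of 7 rose (Taldo1, 1.00, adjusted p = 0.0103), and 0 of 23 glycolysis genes were called by limma (6 at an unadjusted p under 0.05). In P6, 1 of 7 pentose phosphate genes rose, where 0.0465% of all genes were higher. Of the 23 glycolysis genes 0 were called there by limma (1 at an unadjusted p under 0.05).

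Among other genes of glucose entry, 3 of 17 rose in pregnant P5 and 1 fell, a share near the 21.4% of all genes. Slc2a9, a urate and hexose transporter, rose by 1.82 (adjusted p = 0.00109) and Slc5a1, the sodium-coupled glucose transporter SGLT1, by 1.34 (adjusted p = 0.00321), while Slc2a12 fell by 1.31 (adjusted p = 0.00669). Slc2a4, the insulin-regulated transporter, was 20.5-fold higher in P4 than in P5 of pregnant mice (4.36, adjusted p = 0.001) and 23.7-fold higher in virgin mice (4.57, adjusted p = 0.0013). Adipocyte markers averaged 3.93 and 2.64 in pregnant P4, against 2.48 and 1.04 in pregnant P5. In virgin mice they averaged 1.71 and 1.44 in P4, against 0.72 and 0.71 in P5. The part of other cell types in the Slc2a4 difference was not tested. Of the glycogen genes 0 of 11 were called by limma in P4, P5 or P6, with 1, 2 and 0 at an unadjusted p under 0.05.

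Among the enzymes of UDP-sugars 2 of 13 rose in pregnant P5 and 0 fell, a share below the 21.4% of all genes. Uap1, which makes UDP-N-acetylglucosamine, rose 4.27-fold (2.09, adjusted p = 0.00176). Among galactosyltransferases and Golgi carriers 3 of 19 rose and 2 fell, near the share of all genes. Tmem165, which maintains Golgi manganese and calcium, rose by 2.61 (adjusted p = 0.0416), Slc50a1, the sugar transporter SWEET1, by 2.29 (adjusted p = 0.000218) and Slc35b1 by 1.83 (adjusted p = 0.00498). In P4, 0 of 13 UDP-sugar enzymes were called by limma (3 at an unadjusted p under 0.05), and of the 19 Golgi genes 1 fell (Slc35d1, -0.88, adjusted p = 0.0303).

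Of 11 milk and alveolar genes, 5 rose in pregnant P5 and 0 fell, where 10.7% of all genes rose. Their median was 1.90, and among those that rose were Csn1s2b, a casein, by 7.29 (adjusted p = 0.0028), Wap, whey acidic protein, by 5.41 (adjusted p = 0.0195) and Olah, the thioesterase of medium-chain fatty acids, by 5.17 (adjusted p = 4.13e-05). In pregnant P4, 2 of 11 rose with a median of 2.13, Csn1s2b by 6.22 (adjusted p = 0.0242) and Olah by 3.5 (adjusted p = 0.00221). In P6, 0 of 11 were called by limma, with 6 at an unadjusted p under 0.05 and a median of 1.66. The 11 genes averaged 5.5 and 7.88 on the pregnant P5 arrays, against 3.89 and 3.74 on the virgin P5 ones, and 3.89 and 6.34 in pregnant P4, against 3.12 and 2.78 in virgin P4. Over the same P5 comparison 7 of 7 hormone-sensing luminal genes and 6 of 10 luminal genes fell (medians -3.85 and -1.80). In P4, 3 of 7 hormone-sensing luminal genes fell and 2 of 9 adipocyte genes rose. The part of these shifts in the members' results was not tested.

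Of 15 genes of the hypoxia response, 6 rose in pregnant P5 and 0 fell, where 10.7% of all genes rose. The list median was 0.98, and 11 of 15 differences were above 0. Vegfa, the vascular growth factor, rose 7.95-fold (2.99, adjusted p = 1.27e-05), Ndrg1 by 2.29 (adjusted p = 0.00832) and Egln3, an oxygen-sensing hydroxylase, by 1.44 (adjusted p = 0.00648). The list averaged -0.65 and -0.95 on the pregnant P5 arrays, against -1.83 and -1.57 on the virgin P5 ones. In P4 and P6, 0 of 15 were called by limma, with 2 in each at an unadjusted p under 0.05.

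**Figure D4:**
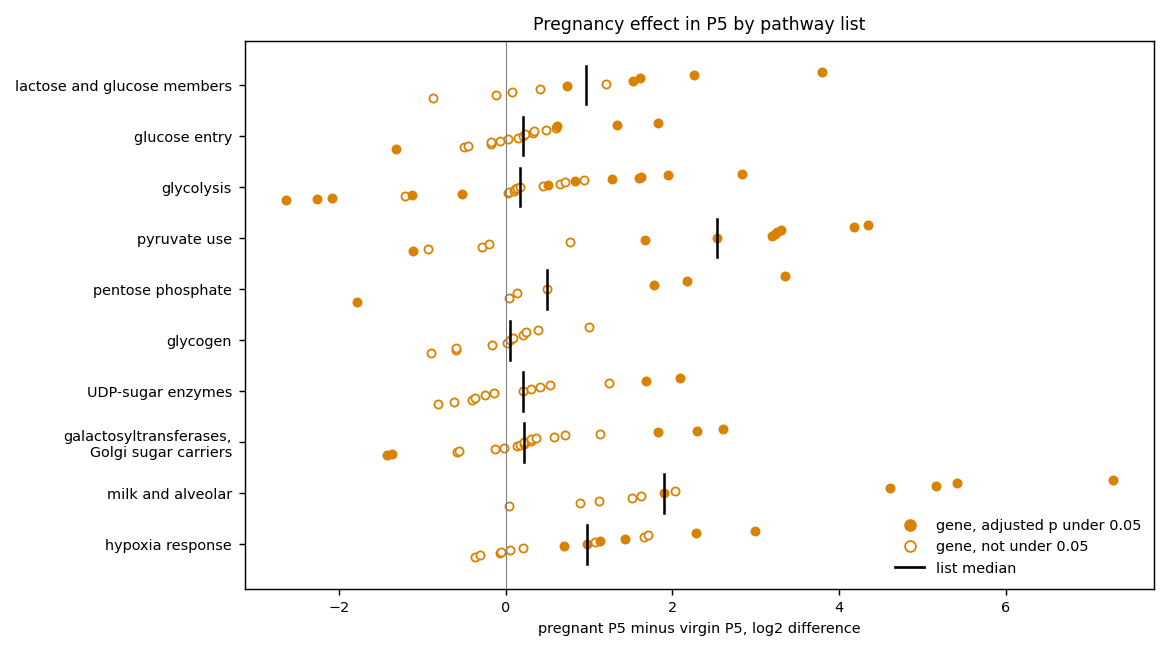
Log2 difference between pregnant and virgin P5 (horizontal axis) for every gene of each list (rows), with filled points for an adjusted p under 0.05 and black bars for list medians. The medians of pyruvate use (2.54) and milk genes (1.90) lie furthest to the right, and glycolysis has called genes on both sides of 0.

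The members did not share one pattern over the 8 group means. B4galt1 correlated with Slc35a2 at 0.886 and with Ugp2 at 0.766, while with Slc2a1 it gave -0.103 and with Hk2 0.161. Over all genes the patterns most like that of B4galt1 were those of Yme1l1 (Pearson r 0.987), Scfd1 (0.983), Tm2d1 (0.973) and Gm4890 (0.97), besides a probe that carries only the file name NAP123016-1 (0.988). For Slc2a1 they were Suz12 (0.97), Cish (0.969), the file's 1700047K16Rik (0.966), Sdc4 (0.959) and Tomm70a (0.956). These are descriptions over 8 means, 2 of which rest on 1 array, and the points share arrays and the reference RNA.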

How the data were processed

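RNA of sorted cells was labelled with Cy5 and a common reference RNA with Cy3 by the Quick Amp kit, per the labels' protocols, and quantified with Agilent Feature Extraction 9.5.3.1, per the file headers and the submitters' processing notes. The deposited scanner files hold a mean intensity and a local background intensity for each spot, not log-transformed. Other columns are, per the file headers, the scanner software's log10 ratio of Cy5 over Cy3, and flags for outlier, saturated and well-measured spots. The authors' table of the whole series has log2 ratios as deposited, which matched the scanner's ratio (r from 0.9903 to 1 over probes; column medians from -0.0182 to 0.102, so not centred; direction Cy5 over Cy3).

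The computations used R 4.3.3 and limma 3.58.1. Where the scanner software marked a local background as non-uniform (7 to 381 spots for an array and dye), the median for that array and dye took its place, a step chosen after seeing the data. Intensities were corrected by normexp (offset 50), normalized within arrays by loess with control spots at weight 0, and outlier spots (77 to 193 per array) set to missing. Repeat spots were averaged. Of 41174 probes, 34805 were kept because the Cy5 signal stood well above background on all arrays of some replicated group. Each gene kept its brightest probe. No chosen member probe was saturated on any array, and all were above background on 14 of 14 arrays.

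A model of the 6 replicated groups (12 arrays, 6 residual degrees of freedom) gave the pregnancy effects, their differences and the pairs of populations, and a model of 4 classes (14 arrays, 10 residual degrees of freedom) gave enriched minus depleted. Both used lmFit and eBayes, with Benjamini-Hochberg adjustment over all genes. Tested on simulated data, the fit for the pregnancy effect in P5 over 23502 genes recovered 34% of 100 genes changed by 1 and 76% of 100 changed by 2 on the log2 scale. Only these genes were changed there and the simulated arrays varied independently, while 21.4% of all genes were called in the real P5 comparison. The recovered shares therefore do not give the recovery in the real data.

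The number of arrays limits the precision, as does signal. The median Cy5 intensity of an array lay between 70.92 and 195.9, with local backgrounds between 32 and 34.5, and between 66.44% and 86.69% of probes exceeded background. The arrays lay on 5 slides in 3 scans, so that scan 1 held replicate 1 of the virgin groups and the GFP arrays, scan 2 held replicate 2 of all 6 groups, and scan 3, made without the extended range, held replicate 1 of the pregnant groups with 111 to 236 saturated spots, against 0 to 15 on the other arrays. Correlations between arrays over genes ran from 0.249 to 0.948. Same-numbered arrays deviated together, with correlations of 0.628 to 0.687 within pregnant groups and of 0.311 to 0.68 within virgin groups, against values of -0.203 to 0.138 across conditions. Within a condition the replicate number coincides with the scan, so a pairing of samples and an effect of the scan cannot be told apart. The main model has no block, and the blocked value stands beside a result whose call it changes.

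Upstream windows came from RefSeq (GRCm38.p6), and probe coordinates are those of the files (mm7). Named genes are the members, Lalba, up to 3 called genes per list and comparison by size of the difference, and the 5 most correlated genes of B4galt1 and Slc2a1. The members and lists were chosen with earlier results of these data known. One gene of the lists is not reported here. Other settings tried were other background corrections and sources of values, median centring, other filters, the mean over probes, slide, scan or replicate number as a block, scan 3 left out, each array left out, and, chosen after seeing the data, each other probe of a member.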

Additional observations from a re-analysis of the deposited data

Results flagged for a closer look

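The pregnancy effect differed between populations, by a test of the difference itself, for 3 members. In the F test over P4, P5 and P6 the F value was 18.3 for B4galt1 (adjusted p = 0.0196), 16.2 for Hk2 (adjusted p = 0.0255) and 14.3 for Aldoc (adjusted p = 0.0334). With median centring or with local backgrounds as given, 0 of the 3 were called by the F test. With 1 of 12 arrays left out, B4galt1 kept the call in 7, Hk2 in 5 and Aldoc in 5 of 12 cases. The effect in P5 minus that in P6 was 3.234 for Hk2, 2.818 for B4galt1 and 2.704 for Aldoc on the log2 scale. For Hk2 the effect was 1.53 in P5 and -1.71 in P6, whereas for B4galt1 it was above 0 in both (3.80 and 0.98). Within scan 2 the excess of P5 over P6 was 3.02 for Hk2, 3.49 for B4galt1 and 2.44 for Aldoc, from 1 array a group. The 5′ probe of B4galt1 gave an excess of 0.32 (adjusted p = 0.805).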

How the results depend on the processing

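The number of members called was recomputed in 12 other settings and with each array left out. In the pregnancy effect in P4 it was 1, and 0 with median centring in place of loess, 2 with the mean over probes, and 3 with slide, scan or the replicate number as a block (leave-one-out 0 to 1). In P5 it was 5, and 2 with local backgrounds as given, 3 with median centring (2 higher and 1 lower) and 3 with slide as a block (leave-one-out 2 to 6). In P6 it was 0 throughout (leave-one-out 0 to 0). The F test called 3, and 0 with local backgrounds as given or median centring, 5 with slide, 6 with scan or the replicate block, and 1 without scan 3 (leave-one-out 0 to 4). P5 minus P4 called 0, and 1 with median centring, the mean over probes or without scan 3, 3 with slide and 5 with scan or the replicate block (leave-one-out 0 to 3). P5 minus P6 called 3, and 0 with median centring and 6 with slide, scan or the replicate block (leave-one-out 1 to 4).

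Virgin P4 minus P5 called 2, and 1 with local backgrounds as given, median centring or the mean over probes (leave-one-out 1 to 3). Virgin P4 minus P6 called 2, and 1 with median centring and 4 with any of the 3 blocks (leave-one-out 0 to 2). Virgin P5 minus P6 called 2, and 1 with the scanner software's ratio, no background subtraction, local backgrounds as given, the series table or no filter, 4 with any of the 3 blocks and 5 without scan 3 (leave-one-out 1 to 3). Pregnant P4 minus P5 called 5, and 3 with the scanner's ratio, local backgrounds as given, the series table, the mean over probes, slide as a block or without scan 3, and 2 with median centring (leave-one-out 2 to 6). Pregnant P4 minus P6 called 2, and 4 with any of the 3 blocks and 1 without scan 3 (leave-one-out 1 to 3). Pregnant P5 minus P6 called 4, and 2 with median centring (leave-one-out 3 to 4). Enriched minus depleted called 0 in virgin mice (leave-one-out 0 to 0) and 0 in pregnant mice (leave-one-out 0 to 1).

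Gpi1 in pregnant P4 minus P5 reversed with the mean over probes (-0.21) and with its second probe (-0.955). The 5′ probe of B4galt1 reversed the pregnancy effect in P4 (-0.542), virgin P4 minus P5 (0.265) and virgin P4 minus P6 (0.0956); the causes were not tested. B4galt1 and Aldoc kept their calls in the pregnancy effect in P5 in 12 of 12 settings (2.60 to 4.63 and 1.60 to 3.06) and with each of 12 arrays left out. The 5′ probe of B4galt1 taken alone is not among those 12 settings. It averaged 0.7153 in pregnant P5 and 0.7152 in virgin P5, so the P5 result of B4galt1 depended on the probe. Median centring moved the median of all genes by 0.177 in the pregnancy effect in P4, by -0.309 in P5 minus P4, by -0.121 in P5 minus P6, by 0.131 in pregnant P4 minus P5, by 0.163 in pregnant P4 minus P6 and in pregnant enriched minus depleted, and the scanner's ratio moved it by -0.115 and 0.118 in pregnant P4 minus P5 and pregnant P5 minus P6. All genes called ran from 190 to 4450 (main 886) in P4, from 2420 to 9636 (main 5054) in P5 from 6 to 1021 (main 44) in P6, from 427 to 6399 (main 1879) in the F test, from 640 to 6237 (main 1898) in P5 minus P4 and from 286 to 5321 (main 1730) in P5 minus P6. Between populations they ran from 1287 to 5734 (main 2688) in virgin P4 minus P5, 1024 to 5167 (main 2440) in virgin P4 minus P6, 2143 to 6859 (main 3815) in virgin P5 minus P6, 2405 to 9750 (main 5336) in pregnant P4 minus P5, 1647 to 5774 (main 2854) in pregnant P4 minus P6 and 2774 to 10470 (main 6367) in pregnant P5 minus P6. Enriched minus depleted gave 157 to 440 (main 384) in virgin and 118 to 767 (main 589) in pregnant mice. The share of calls that were higher was, with median centring, 56.3% in P4 (main 39.8%), 27.8% in P5 (50.1%), 13.1% in P5 minus P4 (48.5%), 37.4% in P5 minus P6 (51.7%), 42.9% in virgin P4 minus P5 (57.7%), 77.4% in pregnant P4 minus P5 (51.6%) and 69.9% in pregnant P4 minus P6 (51.4%). The replicate block changed no other call than those given beside the results. The 2 arrays of each group limit every comparison, and the GFP arrays have no replicate.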
